A study of Mus musculus with 8 samples.

Results

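Ntn1, Pdgfc, Crmp1 and Lrp8os2 are 4 genes that were chosen because their counts were lower in mouse embryonic stem cell libraries labelled Ssrp1 knockout (KO) than in the controls. They were selected on that measured difference, the Ssrp1 contrast. They are 4 of the 54232 genes in the deposited tables, matched by symbol through the GENCODE annotation of mm10. The RNA came from the embryonic stem cell line E14 (strain label 12910la), grown on gelatin in serum medium with 15% FBS and 10 ng/ml LIF. The 8 libraries form 4 groups of 2. One experiment holds control cells and cells edited with Cas9 and a guide RNA against Ssrp1, and the other holds control cells and cells in which Usp7 was knocked down by an shRNA in the pSuper puro vector. For the knockdown, 1000 ng of plasmid was transfected into wild-type cells, and 1 ug/ml puromycin was applied 24 h later for 3 days. The labels do not say whether the knockout libraries come from 1 clone or several, whether the Ssrp1 controls went through editing, or what the Usp7 controls received. Replicates are not said to be separate cultures. The p-values therefore reflect no more than the spread among these libraries, which may be technical.

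Ntn1 encodes netrin-1, a secreted protein related to laminins that guides axons and migrating cells through the receptors Dcc, Neo1 and the Unc5 family. Pdgfc encodes a secreted platelet-derived growth factor that is latent until a protease such as tissue plasminogen activator (Plat) removes its CUB domain, after which it can bind the receptor Pdgfra. Crmp1 encodes a cytosolic collapsin response mediator protein, which relays semaphorin signals to the cytoskeleton and is phosphorylated by kinases that include Cdk5. Lrp8os2 is a noncoding RNA gene on the strand opposite Lrp8, the gene of a receptor for reelin and apolipoprotein E. Ssrp1 is a subunit of FACT, a histone chaperone that acts on nucleosomes during transcription and replication, and Usp7 is a deubiquitinase.

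The 4 genes lie on different chromosomes of mm10. Ntn1 (ENSMUSG00000020902, minus strand of chromosome 11, 68209364 to 68400823) spans 191.5 kb with 6.277 kb of exon in 9 blocks. Pdgfc (ENSMUSG00000028019, plus strand of chromosome 3, 81036416 to 81214040) spans 177.6 kb with 5.089 kb of exon in 7 blocks. Crmp1 (ENSMUSG00000029121, plus strand of chromosome 5, 37241940 to 37292133) spans 50.19 kb with 7.046 kb of exon in 17 blocks. Lrp8os2 (ENSMUSG00000073779, minus strand of chromosome 4, 107806033 to 107823022) is the smallest, with 16.99 kb and 3.221 kb of exon in 4 blocks. It lies wholly within Lrp8 (107802261 to 107876840) and shares 0 exon bases with it. The GC content of the exons is 58.9% for Ntn1, 46.1% for Pdgfc, 54.8% for Crmp1 and 53.4% for Lrp8os2.

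The sequences around the starts are shown because these genes were lower in the same libraries, so that the letters at their starts can be compared. Each is a RefSeq window on GRCm38.p6 from 250 bases before to 50 bases after a start, written 5′ to 3′ along the strand of the gene, and 3 of the 4 genes were matched. Capitals mark matches on either strand to 4 motifs. The TATA box was searched for with the letters TATAAA. The second motif was the one spelled CCAAT, after which its box is named. The GC box was searched for as GGGCGG, and the E-box with the letters CACGTG.
Pdgfc, chr3:81036166-81036465, plus strand: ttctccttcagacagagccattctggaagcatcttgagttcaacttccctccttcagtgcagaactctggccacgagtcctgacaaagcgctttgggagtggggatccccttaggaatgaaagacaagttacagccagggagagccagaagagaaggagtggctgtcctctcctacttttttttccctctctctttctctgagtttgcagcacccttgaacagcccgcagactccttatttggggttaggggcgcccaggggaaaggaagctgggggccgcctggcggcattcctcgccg
Crmp1, upstream start, chr5:37241808-37242107, plus strand: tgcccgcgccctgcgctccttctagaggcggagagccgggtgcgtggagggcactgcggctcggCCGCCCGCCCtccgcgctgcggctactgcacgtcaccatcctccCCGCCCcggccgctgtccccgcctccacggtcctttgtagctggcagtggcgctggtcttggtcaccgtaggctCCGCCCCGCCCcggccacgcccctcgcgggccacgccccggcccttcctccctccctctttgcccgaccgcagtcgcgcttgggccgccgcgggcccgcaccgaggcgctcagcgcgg
Crmp1, downstream start, chr5:37245514-37245813, plus strand: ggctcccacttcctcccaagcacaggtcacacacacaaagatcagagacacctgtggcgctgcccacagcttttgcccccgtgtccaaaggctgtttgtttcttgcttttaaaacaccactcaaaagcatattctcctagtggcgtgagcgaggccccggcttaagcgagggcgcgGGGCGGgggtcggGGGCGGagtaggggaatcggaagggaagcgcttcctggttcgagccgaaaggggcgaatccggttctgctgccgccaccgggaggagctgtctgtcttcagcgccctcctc
Lrp8os2, chr4:107822973-107823272, minus strand: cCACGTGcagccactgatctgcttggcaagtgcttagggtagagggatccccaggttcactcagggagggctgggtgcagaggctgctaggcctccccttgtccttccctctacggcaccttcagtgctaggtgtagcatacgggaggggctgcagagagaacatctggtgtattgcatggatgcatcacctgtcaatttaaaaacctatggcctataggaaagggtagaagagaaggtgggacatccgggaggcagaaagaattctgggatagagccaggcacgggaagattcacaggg
None of these motifs was found in the windows of all 3 genes. The upstream Crmp1 window holds 5 GC boxes, with 3 bases that belong to 2 overlapping matches, and has 41 CpG dinucleotides and 77% GC. The downstream Crmp1 window holds 2 GC boxes, 20 CpG and 61% GC. The Pdgfc window holds 0 matches, with 8 CpG and 55% GC, and the Lrp8os2 window holds 1 E-box, with 5 CpG and 55% GC. Over 32851 RefSeq windows of this length, 13.6% held a TATA box, 37.4% a CCAAT box, 35.7% a GC box and 7.15% an E-box, and the medians were 7 CpG and 52.7% GC. The Lrp8os2 start is 139 bases from an internal start of Lrp8 on the other strand, and their windows have 238 bases of chromosome 4 in common. A match describes these letters and is no evidence of a bound factor.

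Total counts per library ran from 15879056 to 18361130. Levels are given as CPM (counts scaled to a common library size) scaled by TMM factors over the 8 libraries. Ssrp1 stood at 462.4 and 479.1 CPM in control libraries and at 412.2 and 123.3 CPM in the KO-labelled libraries, so the transcript in knockout replicate 1 lay near the controls (log2 change -0.77, SE 0.45, edgeR adjusted p = 0.41). A transcript count does not measure the edit or the protein. Usp7 stood at 370.8 and 359.4 CPM in control libraries and at 111.2 and 122.4 CPM in the knockdown, a 3.13-fold fall (edgeR adjusted p = 0.0012). All 10 pluripotent stem cell markers were tested in both experiments. Their sums were 10600 and 7660 CPM in Ssrp1 control libraries against 7660 and 7140 CPM in the KO-labelled libraries. In the Usp7 experiment they were 6810 and 5460 against 5200 and 4960 CPM. In each experiment 7 of the 10 had a log2 change below 0, with medians of -0.26 (Ssrp1) and -0.27 (Usp7). In either, edgeR called 0 of the 10. An unadjusted p under 0.05 was reached by 0 in the Ssrp1 and 3 in the Usp7 experiment, and DESeq2 called 0 and 1. Mitochondrial transcripts took 0.732% and 0.776% of counts in Ssrp1 control libraries and 7.31% and 2.81% in the KO-labelled libraries, against 1.67% to 2.44% in the Usp7 experiment.

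All 4 genes were lower in both libraries labelled Ssrp1 knockout than in both controls, by 4.55-fold to 10.6-fold. These values chose the genes and are given as a description, with no test. In bulk RNA, fewer cells of a type and less RNA per cell cannot be told apart. Of the secreted ligands, Ntn1 had 1249 and 1404 counts in control libraries and 289 and 157 counts in the KO-labelled libraries, or 89.6 and 82.8 against 19.6 and 8.87 CPM. The lower control was still well above the higher knockout library. The log2 change was -2.55 (SE 0.39), 5.86-fold lower and 22nd from the lowest of 15757 genes tested. It was -3.29 without knockout replicate 1 and -2.09 without knockout replicate 2.

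Pdgfc had 286 and 314 counts in control libraries and 62 and 48 in the KO-labelled libraries, or 20.5 and 18.5 against 4.21 and 2.71 CPM. The groups did not overlap, and the log2 change was -2.45 (SE 0.45), 5.45-fold lower. Crmp1, the cytosolic relay, had 715 and 832 counts in control libraries and 160 and 185 in the KO-labelled libraries, or 51.3 and 49.1 against 10.9 and 10.5 CPM. Its replicates were close to each other in both groups, and the log2 change was -2.18 (SE 0.32), 4.55-fold lower and 58th from the lowest.

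The noncoding Lrp8os2 had the fewest counts, 100 and 72 in the controls and 12 and 4 in the KO-labelled libraries, or 7.17 and 4.25 against 0.814 and 0.226 CPM. Its log2 change of -3.41 (SE 0.75), 10.6-fold lower and 7th from the lowest, had the widest error of the 4. It was -4.62 without knockout replicate 1 and -2.74 without knockout replicate 2, so which knockout library is kept sets its size.

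Ntn1, Pdgfc and Lrp8os2 were lower in knockout replicate 2 than in knockout replicate 1, and Crmp1 was nearly level. The share of all genes that were lower in replicate 2 was not counted. Ntn1 stood at 22.7% of its control mean in replicate 1 and at 10.3% in replicate 2. Pdgfc stood at 21.6% and 13.9%, Lrp8os2 at 14.3% and 3.96%, and Crmp1 at 21.6% and 20.8%, which were nearly equal. Knockout replicate 2 had less Ssrp1 transcript and also a lower mitochondrial share (2.81% against 7.31%). Whether the levels of the 4 genes relate to either was not tested. Libraries that do not overlap, with the knockout lower, were found for 25.3% of all genes tested (25.6% with the knockout higher), and edgeR called 0.324% of them lower and 3.39% higher at an adjusted p under 0.05. The median log2 change of all genes tested was 0.031.

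**Figure D1:**
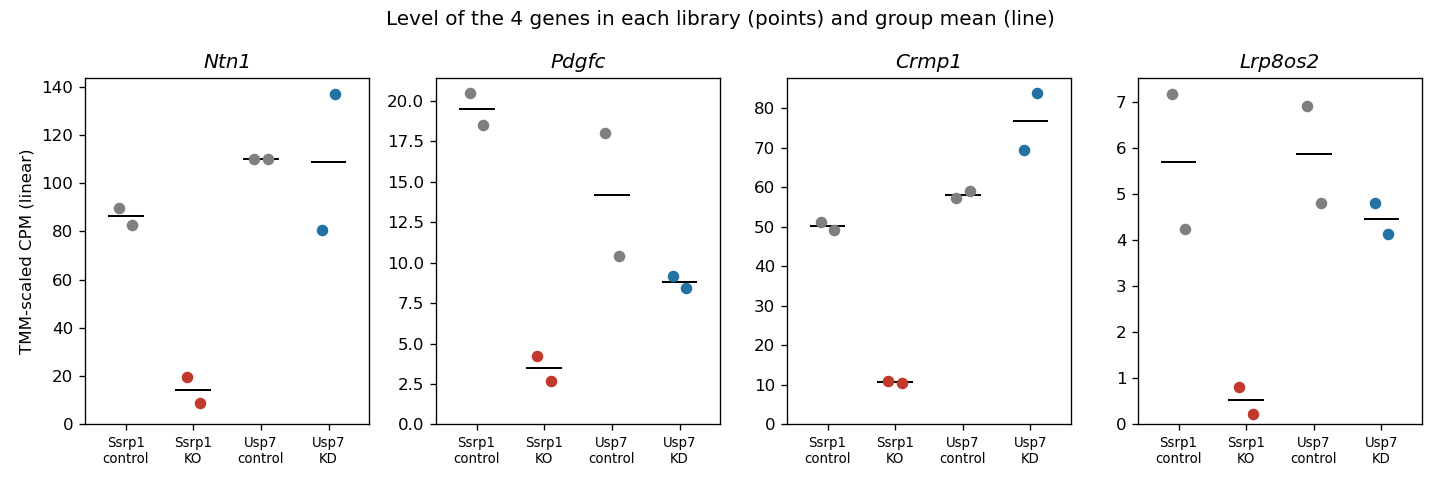
TMM-scaled CPM (linear axis) of Ntn1, Pdgfc, Crmp1 and Lrp8os2 in each of the 8 libraries (points), with the mean of each group of 2 (line). The libraries labelled Ssrp1 KO are the lowest of the 8 for each gene, and the Usp7 KD libraries lie on both sides of their controls for Ntn1, at 80.4 and 137 CPM.

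After Usp7 knockdown, which played no part in choosing the genes, edgeR called 0 of the 4. In that experiment 2.36% of 15915 genes tested were called higher and 0.628% lower. Of the 4 genes, 1 reached an unadjusted p under 0.05, and 0 were called by DESeq2. Ntn1 had 110 and 109.8 CPM in control libraries and 80.4 and 137 CPM in the knockdown. The knockdown libraries thus lay on both sides of controls that were nearly equal. The log2 change was -0.02 (SE 0.24, 95% interval -0.55 to 0.51, edgeR adjusted p = 0.98), and it was 0.32 (adjusted p = 0.91) without knockdown replicate 1 and -0.45 (adjusted p = 1) without knockdown replicate 2.

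Pdgfc had the lowest p of the 4 in the Usp7 experiment. It had 318 and 188 counts in control libraries and 174 and 161 in the knockdown, or 18.0 and 10.4 against 9.19 and 8.43 CPM. Both knockdown libraries were below both controls, as for 22.9% of all genes tested, but the controls differed from each other by more than the lower control differed from the knockdown. The log2 change was -0.69 (SE 0.29, 95% interval -1.32 to -0.05, edgeR unadjusted p = 0.036, adjusted p = 0.26). It was -1.03 (adjusted p = 0.0014) without control replicate 2 and -0.25 (adjusted p = 0.63) without control replicate 1, so which control is kept sets the call.

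Crmp1 had 57.3 and 58.9 CPM in Usp7 control libraries and 69.4 and 83.8 CPM in the knockdown. Both knockdown libraries were above both controls, as for 24.7% of all genes tested. The log2 change was 0.40 (SE 0.19, 95% interval -0.01 to 0.81, edgeR adjusted p = 0.32) and did not pass. Lrp8os2 had 122 and 87 counts in control libraries and 91 and 79 in the knockdown, or 6.91 and 4.82 against 4.80 and 4.14 CPM. The nearest libraries of its groups were almost level, and the log2 change was -0.39 (SE 0.32, 95% interval -1.09 to 0.31, edgeR adjusted p = 0.59). Whether the Usp7 and Ssrp1 changes differ was not tested, since the Ssrp1 values chose the genes.

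**Figure D2:**
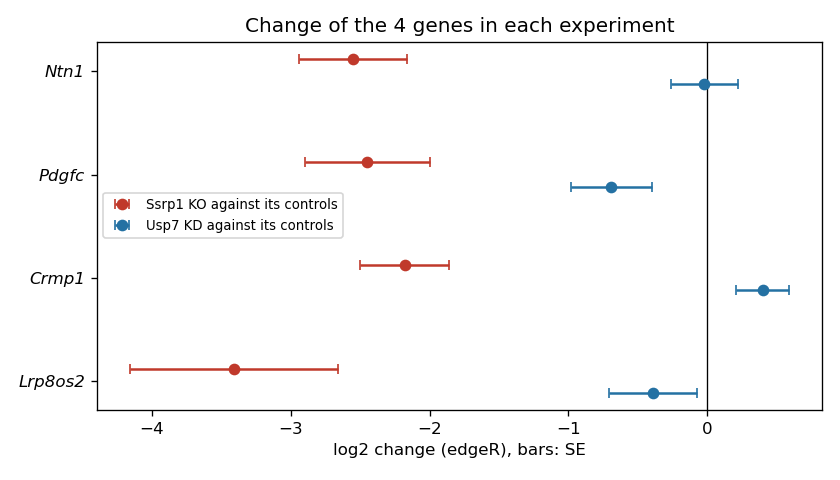
Log2 change of each gene from edgeR against its own controls in the Ssrp1 experiment (red) and the Usp7 experiment (blue), with bars of 1 SE. The Ssrp1 values, which chose the genes, run from -3.41 to -2.18, and the Usp7 values from -0.69 to 0.40.

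Ranked by group, the libraries labelled Ssrp1 knockout came last for each gene, as the choice of genes made likely. The order above them differed. Per kb of exon, Ntn1 had 17.5 ± 0.0223 CPM in the Usp7 controls, 17.3 ± 6.38 in the Usp7 knockdown, 13.7 ± 0.762 in the Ssrp1 controls and 2.27 ± 1.21 in the libraries labelled Ssrp1 knockout (SD, n = 2). The knockdown libraries overlapped the groups on both sides of them in this order. Crmp1 had 10.9 ± 1.44 CPM per kb in the Usp7 knockdown, 8.25 ± 0.166 in the Usp7 controls, 7.12 ± 0.222 in the Ssrp1 controls and 1.51 ± 0.0407 in the libraries labelled Ssrp1 knockout (SD, n = 2). Neighbours in its order did not overlap. Within the experiments, such a step was found for 24.7% of all genes tested (Usp7 knockdown higher) and 25.3% (Ssrp1 knockout lower). For the step between the 2 control groups no share was counted.

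Pdgfc was highest in the Ssrp1 controls, at 3.84 ± 0.277 CPM per kb, followed by 2.79 ± 1.06 in the Usp7 controls, 1.73 ± 0.105 in the Usp7 knockdown and 0.680 ± 0.208 in the libraries labelled Ssrp1 knockout (SD, n = 2). Its neighbouring groups did not overlap, but the Usp7 controls, spread from 10.4 to 18.0 CPM, nearly reached the groups on both sides. Usp7 knockdown libraries below both of their controls were found for 22.9% of all genes tested. For the steps across the experiments no share was counted. Lrp8os2 had 1.82 ± 0.459 CPM per kb in the Usp7 controls, 1.77 ± 0.642 in the Ssrp1 controls, 1.39 ± 0.147 in the Usp7 knockdown and 0.162 ± 0.129 in the libraries labelled Ssrp1 knockout (SD, n = 2). Its groups other than the last overlapped with their neighbours. In each group the genes stood in the same order per kb, with Ntn1 first, then Crmp1, Pdgfc and Lrp8os2. Levels set side by side across the experiments also hold any difference between the experiments, which cannot be told apart from the perturbations.

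Of the netrin pathway, the receptor gene Dcc and the adaptor gene Nck1 rose in the libraries labelled Ssrp1 knockout. Dcc had 9 and 4 counts in control libraries and 39 and 122 in the KO-labelled libraries, a log2 change of 3.50 (SE 0.79, 11.3-fold, edgeR adjusted p = 0.037). Its groups did not overlap, but the level stayed low, at 0.102 CPM per kb as the mean of the 8 libraries against 12.7 for Ntn1. Nck1, which links Dcc to actin regulators, had 8.39 and 14.3 CPM in control libraries and 33.2 and 33.7 CPM in the KO-labelled libraries (log2 change 1.60, SE 0.38, 3.03-fold, edgeR adjusted p = 0.043). Both calls depend on the controls. Without control replicate 1 the adjusted p was 0.26 for Dcc and 0.49 for Nck1, without control replicate 2 it was 0.2 and 0.049, and with a correction for GC content and length it was 0.07 and 0.23. In these settings, in the same order, the log2 change was 4.29, 2.93 and 3.33 for Dcc and 1.22, 2.06 and 0.84 for Nck1.

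These were 2 of the 13 tested genes of the 18 other netrin pathway genes in the table, with 0 lower and a median log2 change of 0.09. The receptor gene Neo1, at 6.53 CPM per kb a far more abundant transcript than Dcc, had a log2 change of 0.16 (SE 0.28, edgeR adjusted p = 0.82), and the focal adhesion kinase gene Ptk2 one of 0.20 (SE 0.28, adjusted p = 0.77). After Usp7 knockdown edgeR called 0 of 13, with 6 at an unadjusted p under 0.05, 1 called by DESeq2 and a median of 0.25, and edgeR called 4 without Usp7 control replicate 2. Dcc had 1 and 0 counts in Usp7 control libraries and 1 and 5 in the knockdown and was not tested.

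Of the PDGF pathway, edgeR called 0 of 8 tested genes in either experiment. In the Ssrp1 experiment 3 of the 8 reached an unadjusted p under 0.05, 1 was called by DESeq2, and the median log2 change was 0.76. After Usp7 knockdown 2 reached an unadjusted p under 0.05, 0 were called by DESeq2, and the median was 0.27. Pdgfra, the receptor for Pdgfc and a marker of primitive endoderm, had 20 and 27 counts in Ssrp1 control libraries and 112 and 66 in the KO-labelled libraries, a log2 change of 1.94 (SE 0.62, edgeR adjusted p = 0.11). The second receptor gene, Pdgfrb, had a log2 change of 0.82 (SE 0.64, adjusted p = 0.56), and the ligand gene Pdgfa, which was higher than Pdgfc per kb, one of -0.40 (SE 0.35, adjusted p = 0.61). Furin, a protease that processes other ligands of the family, had one of 0.03 (adjusted p = 0.98).

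Of the CRMP and semaphorin pathway, edgeR called 0 of 18 tested genes in the Ssrp1 experiment and 0 of 19 in the Usp7 experiment. An unadjusted p under 0.05 was reached by 2 and by 6, DESeq2 called 2 and 0, and the median log2 changes were -0.05 and 0.12. The edgeR count was 3 in the Ssrp1 experiment without knockout replicate 2, and 7 in the Usp7 experiment without control replicate 2. Dpysl2 (Crmp2) had a log2 change of 0.26 (SE 0.66, edgeR adjusted p = 0.88) in the Ssrp1 experiment. Dpysl3, named after its values were seen, had 410 and 625 counts in control libraries and 122 and 270 in the KO-labelled libraries (log2 change -1.45, SE 0.39, edgeR adjusted p = 0.07). Nrp2, a semaphorin co-receptor gene also named after its values were seen, had a log2 change of -1.47 (SE 0.40, edgeR adjusted p = 0.069). The call of both turns with the method. The adjusted p of Dpysl3 was 0.0077 with DESeq2, 0.018 in the joint fit of 8 libraries and 0.0078 without a filter, but 0.11 with the GC and length correction, and that of Nrp2 was 0.0079, 0.02, 0.0045 and 0.11. Without knockout replicate 2 the log2 changes of Dpysl3 and Nrp2 were -1.96 and -2.06, and without knockout replicate 1 both were -1.13. Without control replicate 1 they were -1.65 and -1.26, and without control replicate 2 they were -1.26 and -1.7. Plxna1, the most abundant of the list by CPM and a semaphorin receptor gene, had one of -0.14 (SE 0.27, adjusted p = 0.84), and the kinase gene Gsk3b one of 0.41 (SE 0.36, adjusted p = 0.60).

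Of the reelin pathway and the other Lrp8 antisense RNAs, edgeR called 0 of 7 tested genes in the Ssrp1 experiment and 0 of 8 in the Usp7 experiment. In each, 2 reached an unadjusted p under 0.05, and 1 and 0 were called by DESeq2, with medians of 0 and 0.2. Apoe, which encodes a ligand of Lrp8, had a log2 change of -1.14 (SE 0.31, edgeR adjusted p = 0.068) in the Ssrp1 experiment. Pafah1b1, which acts with dynein in neuronal migration, had one of 0.89 (SE 0.26, adjusted p = 0.093). The other antisense RNAs, Lrp8os1 and Lrp8os3, had too few counts to be tested.

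**Figure D3:**
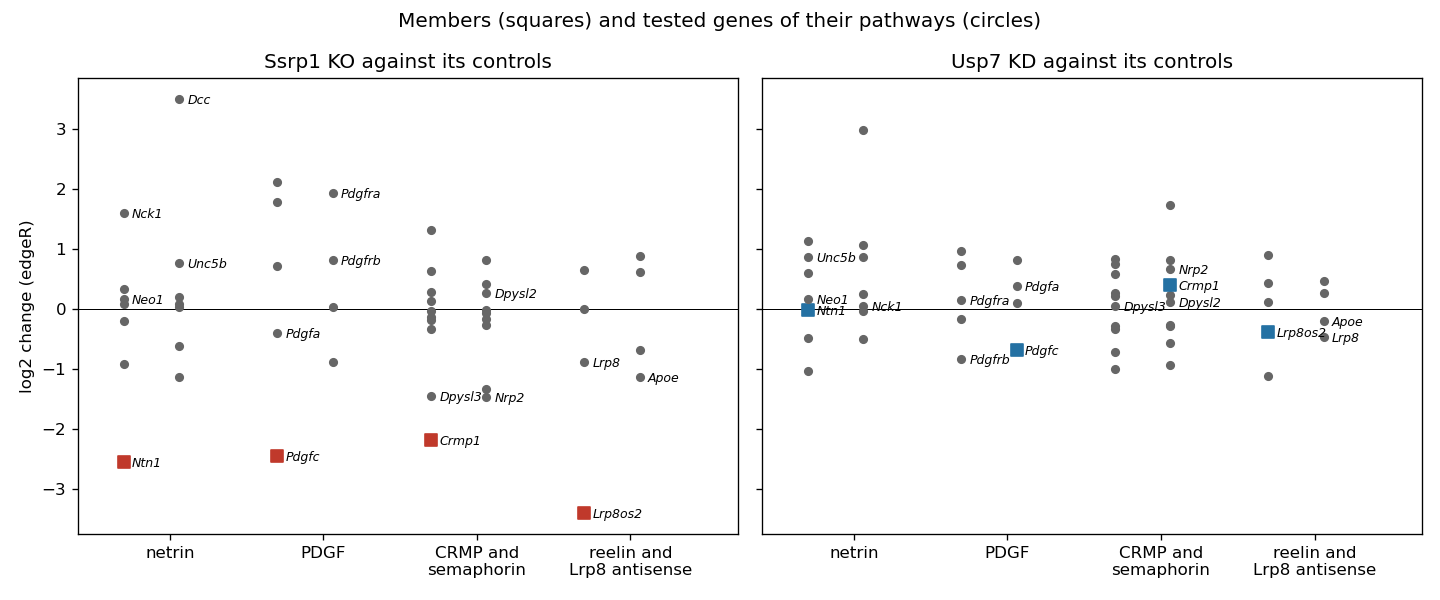
Log2 change from edgeR of the 4 genes (squares) and of the tested genes of their pathways (circles), in the Ssrp1 experiment (left) and the Usp7 experiment (right), with points spread sideways for legibility. In the Ssrp1 experiment each square is the lowest point of its list, as the choice of genes sets, and Dcc is the highest point at 3.50.

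Lrp8, the host of Lrp8os2, had 102 and 219 counts in Ssrp1 control libraries and 44 and 136 in the KO-labelled libraries, or 7.32 and 12.9 against 2.99 and 7.68 CPM. Its groups overlapped, and the log2 change was -0.88 (SE 0.57, edgeR adjusted p = 0.46). After Usp7 knockdown it was -0.47 (SE 0.29, adjusted p = 0.46). The strand setting of the counting is not given in the sources used here, so reads of unspliced Lrp8 RNA over Lrp8os2 exons cannot be told apart from Lrp8os2 reads. The same holds for Crmp1 and Evc, a ciliary gene that overlaps it on the opposite strand with 0 shared exon bases. Evc had 559 and 671 counts in Ssrp1 control libraries and 262 and 400 in the KO-labelled libraries (log2 change -0.93, SE 0.32, adjusted p = 0.14). Gm16000 overlaps Pdgfc on the opposite strand with 147 shared exon bases, where reads of the pair cannot be told apart either. Its mean level was 0.00737 CPM. Mir6406 and Gm12305 overlap Ntn1 with 0 shared exon bases, at means of 0.0751 and 0.0405 CPM.

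Of the 23 neighbouring protein-coding genes in the table, up to 3 on each side of each of the 4 genes, 12 were tested in the Ssrp1 experiment and edgeR called 0. An unadjusted p under 0.05 was reached by 2, DESeq2 called 0, and the median log2 change was 0.02. Evc2, the partner of Evc, lies 46.37 kb beyond Crmp1 and had a log2 change of -0.81 (SE 0.30, adjusted p = 0.18). Stx8 lies 2.216 kb from Ntn1 and had one of -0.21 (SE 0.36, adjusted p = 0.82). After Usp7 knockdown edgeR called 1 of 16 tested neighbours, Dmrtb1, with 2 at an unadjusted p under 0.05, 1 called by DESeq2 and a median of -0.03. Dmrtb1, a DM domain gene known from the germ line, lies 121.8 kb from Lrp8os2 and had 64 and 43 counts in Usp7 control libraries and 319 and 327 in the knockdown (log2 change 2.50, SE 0.29, adjusted p = 0.0012). With all 8 libraries in 1 fit its adjusted p was 0.055.

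**Figure D4:**
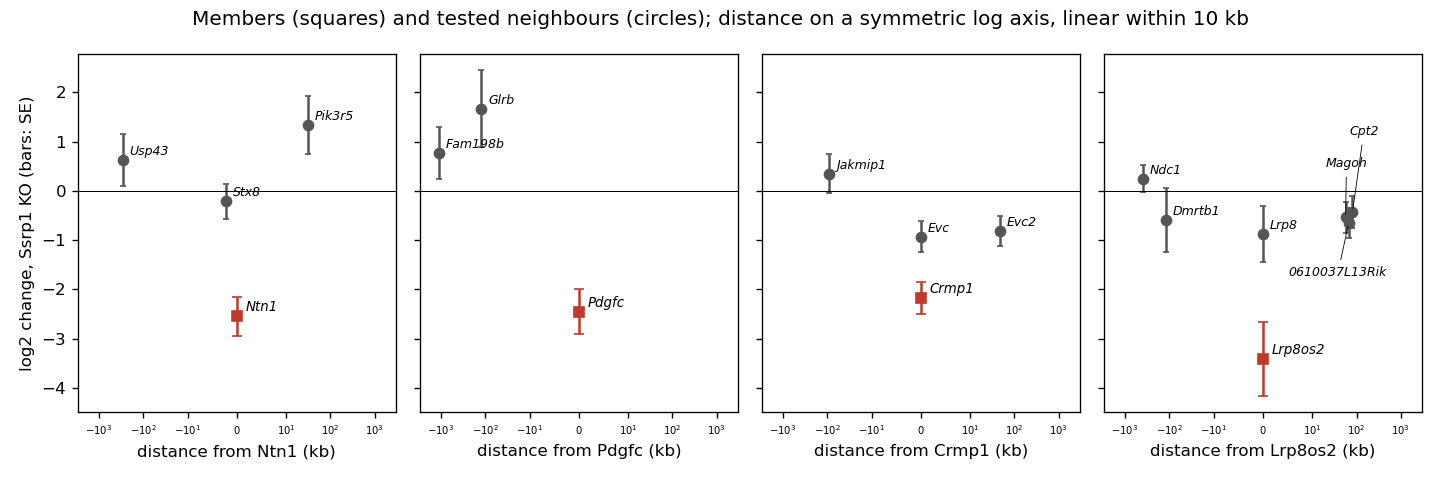
Log2 change from edgeR in the Ssrp1 experiment of the 4 genes (squares) and of overlapping and neighbouring tested genes (circles), with bars of 1 SE, against the distance from the gene in kb on a symmetric log axis that is linear within 10 kb. Each square lies below the circles around it, as the choice of genes makes likely. The circles run from -0.93 for Evc to 1.67 for Glrb.

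Markers of other cell types that these cultures could hold were read in the same libraries. Of 13 neural markers, 8 were tested in the Ssrp1 experiment and edgeR called 0 (unadjusted p under 0.05 for 2, DESeq2 2), with summed levels of 918 and 616 CPM in control libraries and 478 and 404 CPM in the KO-labelled libraries, and 1 marker, Dcx, at 0 in these 4 libraries. Of 10 primitive endoderm markers, 8 were tested and 1 rose, Dab2 (log2 change 2.87, SE 0.64, edgeR adjusted p = 0.035). Of these 8, 7 reached an unadjusted p under 0.05, 4 were called by DESeq2, 0 had a log2 change below 0, and the median was 1.88, with sums of 243 and 219 CPM against 381 and 465 CPM. Sparc made up most of these sums, at 187.2 and 157.4 against 278.5 and 343.5 CPM. Of 10 fibroblast markers, 5 were tested and 0 called (unadjusted p under 0.05 for 0, DESeq2 0), with sums of 25.3 and 32.4 against 21 and 59.5 CPM. The 8 tested markers of the 2-cell-like state, of 9 in the table, were all called higher by edgeR, and DESeq2 called 6. Their sums were 59 and 155 against 494 and 1330 CPM. Stmn2 made up most of the neural sum, at 712.1 and 446.5 against 300.9 and 262.2 CPM. Of the 8 tested neural markers, 3 had a log2 change above 0, all chosen after their values were seen. They were Otx2 (1.17, SE 0.61), Nes (0.81, SE 0.42) and Elavl3 (0.17, SE 0.50). Otx2 had 14.8 and 13.1 CPM in control libraries and 51.6 and 9.21 in the KO-labelled libraries. Elavl3 had 13.05 and 16.2 against 8.01 and 23.95 CPM. For both genes the KO-labelled libraries thus lay on both sides of the controls. The other 5 had a log2 change below 0. Among them, Pax6, also named after its values were seen, had 12.98 and 13.57 against 4.004 and 3.785 CPM. Its log2 change was -1.72 (SE 0.45, edgeR adjusted p = 0.065). The neural sum, which mainly reads Stmn2, was thus lower in the libraries in which the 4 genes were low. The primitive endoderm and 2-cell-like sums were higher there. The part of these cell types in the levels of the 4 genes was not tested. After Usp7 knockdown the neural sums were 379 and 336 against 358 and 364 CPM. Of 10 tested neural markers 1 was called, Pax6, which rose (log2 change 1.27, edgeR adjusted p = 0.02). All 6 tested 2-cell-like markers were called higher by edgeR, and DESeq2 called 5. Their sums were 4.42 and 4.32 against 30.3 and 24.9 CPM. The primitive endoderm sums were 234 and 226 against 341 and 344 CPM, with 0 of 8 tested markers called by edgeR, 3 at an unadjusted p under 0.05, 1 called by DESeq2, 1 below 0 and a median log2 change of 0.61. Here too Sparc made up most of the sums, at 163 and 142.5 against 265.5 and 256.8 CPM. The fibroblast sums were 29.9 and 40.1 against 21.4 and 29.8 CPM, with 0 of 5 called by edgeR, 2 at an unadjusted p under 0.05 and 0 called by DESeq2.

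Genes with the most similar profile were named by Pearson's r of log2 CPM, centred within each experiment, over the 8 libraries and 10239 other genes (10240 for Lrp8os2). The values are a description with no test, since the low knockout libraries weigh on every such r and the points share depth and library. Ntn1 was most like Wiz (r = 0.985), which encodes a zinc finger partner of G9a, Adam23 (0.985) and the phosphate transporter gene Slc20a2 (0.984). Pdgfc was most like the growth cone gene Gap43 (0.993), the DNA polymerase gene Poli (0.992) and the growth factor gene Fgf17 (0.99). Crmp1 was most like Ankrd13a (0.993), its neighbour Evc2 (0.989) and Gli1 (0.989), the hedgehog pathway transcription factor gene. Lrp8os2 was most like Fblim1 (0.994), Slc20a2 (0.993) and Lefty1 (0.992), which encodes an inhibitor of Nodal. Slc20a2 was thus named for both Ntn1 and Lrp8os2. The sizes differed among genes of like profile, with Ssrp1 log2 changes of -0.54 for Wiz, -2.05 for Fgf17, -0.42 for Ankrd13a, -1.99 for Gli1 and -4.49 for Lefty1. Without centring, 1 of the 3 genes remained for Ntn1, 2 for Pdgfc, 0 for Crmp1 and 0 for Lrp8os2.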

How the data were processed

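RNA of 8 libraries was sequenced after mRNA library preparation, per the labels' protocols. Per the submitters' processing notes, cutadapt, HISAT2, featureCounts and the build mm10 were used; versions, annotation, strand and multimapping settings: not given in the sources used here. The deposited values are raw counts per Ensembl gene. The 92 spike-in rows were 0, and 153 IDs had no symbol. Genes were filtered with filterByExpr and fitted per experiment (4 libraries, 2 residual degrees of freedom) with edgeR 4.0.16 (R 4.3.3): TMM factors, quasi-likelihood F test, Benjamini-Hochberg adjustment over all genes, threshold 0.05. SE is the log2 change over the root of F. Displayed CPM use TMM over 8 libraries, so their ratios can differ slightly from fitted folds. DESeq2 1.42.0 was an alternative. The fits were tested on simulated data. The 4 genes, the lists and the tests were chosen with earlier results of these data known. Named were the 4 genes, called genes and the 2 most abundant of each list, Lrp8, Dcc, Neo1, Pdgfra, Pdgfrb and Dpysl2, called or overlapping neighbours, and the 3 genes most like each of the 4 with at least 5 CPM on average (prior count 2), predicted genes left out; others were named after their values were seen.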

Additional observations from a re-analysis of the deposited data

How the results depend on the processing

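In the Ssrp1 experiment each of the 4 genes kept its direction under all 10 alternatives. The choice of the genes from these same libraries made this likely, so it is no test of the fall. Leaving out 1 library gave log2 changes of -3.29 to -2.09 for Ntn1, -2.85 to -2.17 for Pdgfc, -2.27 to -2.16 for Crmp1 and -4.62 to -2.74 for Lrp8os2. Crmp1 was at -2.24 with DESeq2, -2.24 in the joint fit of 8 libraries and -1.9 with the GC and length correction. In the Usp7 experiment leaving out 1 library gave -0.45 to 0.32 for Ntn1, where the sign turned to 0.32 without knockdown replicate 1, and -1.03 to -0.25 for Pdgfc, which passed at -1.03 without control replicate 2; Crmp1 (0.26 to 0.53) and Lrp8os2 (-0.62 to -0.12) passed under none. Genes called higher in the Ssrp1 experiment numbered 534, against 888 with DESeq2, 1238 without a filter, 1042 in the joint fit, 242 with the GC and length correction and 16 to 1464 with 1 library left out (16 without control replicate 1). Genes called lower numbered 51, against 212, 259 and 272 with DESeq2, no filter and the joint fit, and 4 to 420 with 1 library left out (4 without control replicate 1). In the Usp7 experiment 376 were called higher, against 95 without a filter, 74 in the joint fit, 595 with the GC and length correction and 41 to 2032 with 1 library left out (2032 without control replicate 2). There 100 were called lower, against 206 with DESeq2, 5 without a filter, 4 in the joint fit, 225 with the GC and length correction and 1 to 1738 with 1 library left out (1738 without control replicate 2). The cause of these shifts was not tested. Leaving out a library leaves fewer samples, and the lone sample is then assumed to vary like the other group. Replicates share only a number (correlation of same-numbered deviations 0.18 in the Ssrp1 and 0.14 in the Usp7 experiment). With the replicate block 844 genes were called higher and 144 lower in the Ssrp1 experiment, and 964 and 507 in the Usp7 experiment, and none of the 4 genes passed there (adjusted p = 0.9 for Ntn1, 0.11 for Pdgfc, 0.22 for Crmp1 and 0.56 for Lrp8os2, edgeR). With 1 library left out, called genes of the netrin, PDGF, CRMP and reelin lists numbered 0 to 4, 0 to 3, 0 to 3 and 0 to 2 in the Ssrp1 experiment and 0 to 4, 0 to 1, 0 to 7 and 0 to 2 in the Usp7 experiment. With the replicate block they numbered 2, 0, 2 and 0, and 3, 1, 3 and 0. Depth limits Lrp8os2, with 12 and 4 counts in the libraries labelled Ssrp1 knockout.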
